A study of Mus musculus with 10 samples.

Results

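The regions described here are the 500 kb stretches of the mouse genome that held more accessible sites in plasma cells than in naive B cells. On chromosomes 1 to 19 (build mm9), bins were laid from the first base of each chromosome, and ATAC-seq peaks were assigned by midpoint. A bin counted as gaining when the plasma cell list held at least 4 more peaks than the naive B cell list. By this rule 583 of 4955 bins (11.8%) gained. The bins were thus chosen by their numbers of peaks, and peak numbers are given below as a description of that choice. The chromosome contact maps took no part in it.

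The study compared chromatin accessibility (ATAC-seq), RNA and genome-wide contacts of naive B cells and plasma cells of C57BL/6 mice, with 1 library per assay and cell type. For ATAC-seq, 50000 cells were sorted per library from WT mice, as CD23+IgD+ spleen cells and as CD138+ bone marrow plasma cells that lacked B220 and the lineage markers IgD, CD4, CD8, Gr1 and Ter119. Contacts were measured by tethered chromosome capture (TCC), a form of Hi-C in which fixed, cut chromatin ends are ligated on a solid surface. The protocol text, shared by both TCC libraries, names 10000000 cells. The naive B map came from bead-purified CD23+ spleen cells of WT mice. The plasma map came from Blimp-GFP mice, in which GFP reports Blimp-1, the plasma cell regulator encoded by Prdm1. One label calls these cells sorted ex vivo, while the protocol describes CD23+ cells cultured for 3 days with 10 µg/ml lipopolysaccharide and sorted for GFP. The RNA libraries came from WT mice, and the plasma RNA carries a similar conflict in the other direction (activated in vitro by its label, sorted from bone marrow by its protocol). Accessibility and contacts of plasma cells may thus come from bone marrow and from culture, and cell source, genotype and cell type cannot be told apart.

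In the nucleus, active and accessible chromatin tends to contact other active chromatin (the A compartment), and closed chromatin contacts closed chromatin (the B compartment). This sorting holds within a chromosome (cis) and between chromosomes (trans). Plasma cells arise from B cells when Blimp-1 and the unfolded protein response factor Xbp1 are switched on and B cell regulators such as Pax5 and Bach2 are switched off, and they make and secrete antibody in large amounts.

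The lists held 29868 naive B and 30475 plasma peaks in all. In gaining bins there were 5903 naive B and 9458 plasma peaks, a median of 9 and 16 per bin, and the gain ran from 4 to 16 with a median of 5. Of the plasma peaks in these bins, 4406 (46.6%, 33.2% in all autosomal bins) overlapped no naive B peak, and 801 of the naive B peaks (13.6%) overlapped no plasma peak. Both shares are tied to the rule, and nothing is read from them. The peaks found only in the plasma list were weaker and narrower by the authors' own values (median peak score 119, median width 1477 bp) than plasma peaks in gaining bins that overlapped a naive B peak (425 and 2168 bp). The DNA covered by peaks in gaining bins was 10.9 Mb in the naive B list and 19.6 Mb in the plasma list. At the edge of the rule, 175 bins gained exactly 4 peaks (median 9 and 13 peaks) and 242 bins gained 3 and stayed outside (median 8 and 11).

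Of the 583 gaining bins, 11 held no naive B peak. The share of bins that gained was 0.994% among bins without a naive B peak, 5.36% with 1 to 4, 19.8% with 5 to 9, 22.4% with 10 to 14, 25.1% with 15 to 19 and 22.0% with 20 or more. The share that lost at least 4 peaks went the same way, with 0%, 1.19%, 12.9%, 17.8%, 23.1% and 26.6% in these classes, and a fixed difference of 4 peaks is more easily met in bins with many peaks. Gaining bins are set below beside 2 other sets with peaks. These are 499 peak-rich bins with at least 10 peaks in both lists and a change of at most 2, and the 405 losing bins, where the plasma list held at least 4 fewer peaks. Their median naive B peak numbers, 14 and 12, were above the 9 of gaining bins, so the sets are not matched in accessibility.

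Gaining bins were spread over all autosomes but unevenly. Chromosome 4 had the highest share (56 bins, 17.9% of its bins), followed by chromosome 9 (39 bins, 15.7%) and chromosome 8 (41 bins, 15.5%). The lowest shares were on chromosome 10 (20 bins, 7.69%) and chromosome 13 (21 bins, 8.71%). Along the chromosomes, gaining bins were more frequent towards the end far from the centromere (mouse chromosomes carry the centromere at the start). In all, 89 gaining bins (15.3%) lay in the last 12 Mb, where 9.20% of all bins, 10.0% of bins with a peak, 10.2% of peak-rich bins and 8.89% of losing bins lay. In the first 12 Mb lay 29 (4.97%), against 7.24% of bins with a peak and 7.21% of peak-rich bins.

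**Figure D1:**
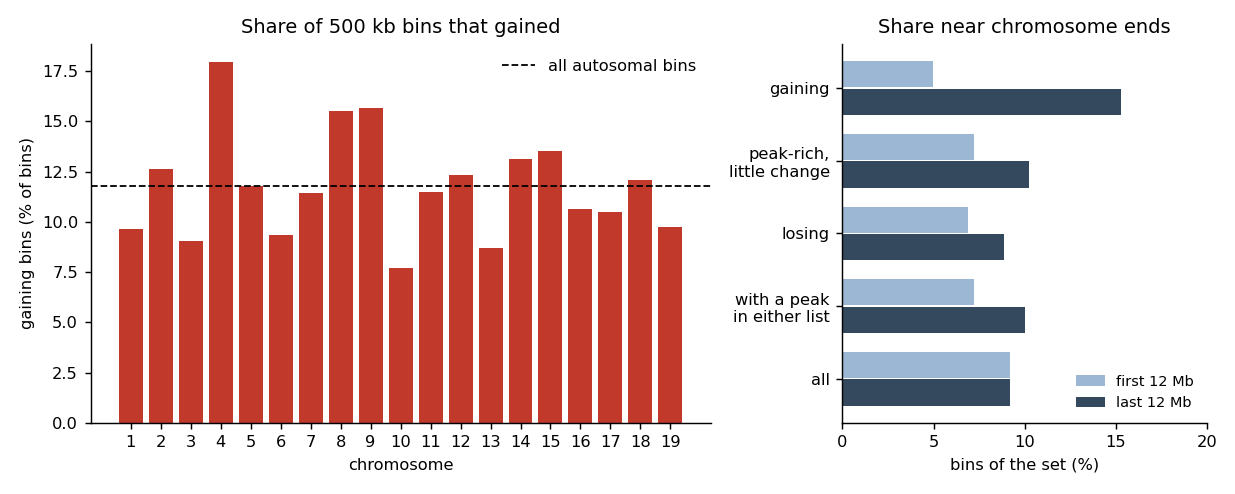
Left, percent of 500 kb bins that gained on each autosome, with the share over all autosomes (11.8%) as a dashed line. Right, percent of each set of bins that lay in the first or the last 12 Mb of a chromosome. Chromosome 4 stands highest at 17.9%, and 15.3% of gaining bins lie in the last 12 Mb.

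Gaining bins also lay next to each other. A gaining neighbour was present for 284 of 583 gaining bins (48.7%), for 36.1% of peak-rich bins, 21.1% of all bins and 14.6% of losing bins. There were 299 single bins and 116 runs of 2 or more, of which 80 were of 2 bins, 23 of 3, 11 of 4, 1 of 5 and 1 of 6. The longest run, chr4:132500001-135500000, went from 91 naive B to 142 plasma peaks. By peaks gained, chr8:124000001-126000000 (4 bins) came next with 40 and 70 peaks, and chr17:83500001-85000000 with 39 and 68. The run of 5 bins, chr8:107500001-110000000, held 62 and 90 peaks. These runs lay in the A compartment in both maps, with mean components between 1.05 and 1.36. A smaller run, chr4:81500001-83000000, named after its values were seen, lay in B in both maps (mean component -0.73 and -0.66) although its peaks went from 7 to 32.

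Compartments were read from each 500 kb map, after balancing by the authors, as the first principal component of the correlation between contact profiles of the bins of a chromosome. The component is in SD units of its chromosome, positive for A. Its sign was set on each chromosome so that it rose with the number of peaks in both lists together. Which side is called A thus rests on the same peak lists that chose the bins. Bins covered too thinly in either map were left out, which kept 4532 bins, among them 578 gaining, 498 peak-rich and 389 losing bins. In the naive B map 524 of 578 gaining bins (90.7%) were in A, against 51.0% of all bins, 97.0% of peak-rich bins and 74.6% of losing bins. Their median naive B component was 1.14, beside 1.15 for peak-rich bins and 0.640 for losing bins.

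Bins that gained were further towards A in the naive B map than other bins with like numbers of naive B peaks. The classes that follow are wide, and their values for all bins include the gaining ones. With 1 to 4 naive B peaks, the 83 gaining bins had a median component of 0.308, the 18 losing bins -0.779 and all 1448 such bins -0.90. With 5 to 9 peaks, the medians were 1.09 for 196 gaining bins, 0.0427 for 123 losing bins and 0.673 for all. With 10 to 14 peaks they were 1.19, 0.609 and 1.12. At 20 or more peaks gaining bins (1.17) and all bins (1.16) were close. With no naive B peak, the 10 gaining bins in use had a median of -0.736 and all 876 such bins -1.17. In a comparison added after the data were seen, gaining bins were set against all other bins with exactly the same number of naive B peaks. Their median component was higher at 20 of the 23 peak numbers with at least 5 gaining bins, and at all 10 numbers from 0 to 9. With 5 naive B peaks it was 0.789 for 34 gaining and 0.0614 for 189 other bins. With 8 peaks it was 1.19 for 46 and 0.614 for 142 bins, and with 15 peaks 1.19 for 29 and 1.16 for 72 bins. The difference was thus wider below 10 naive B peaks than above. It has no replicate check, since each map is 1 library. The match was on naive B peaks only. By the rule, gaining bins held at least 4 more plasma than naive B peaks, and the other bins did not. The sets thus differ in plasma cell accessibility by choice, and the part of this in the difference was not tested.

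**Figure D2:**
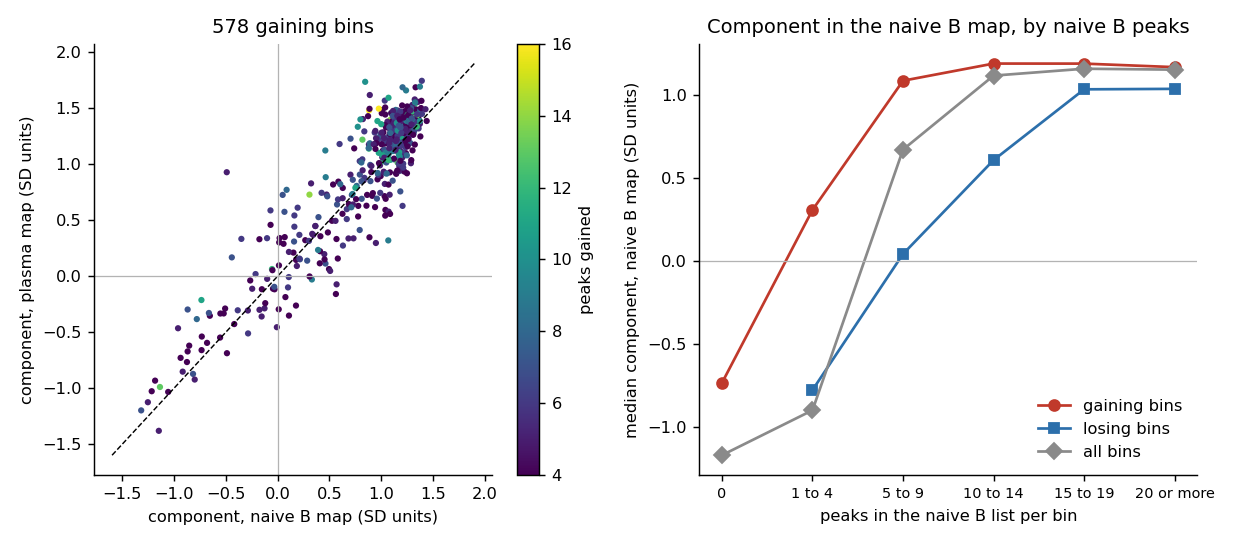
Left, component of each of 578 gaining bins in the naive B map (x) and the plasma map (y), in SD units of the chromosome, coloured by the number of peaks gained, with the line of equal values dashed. Right, median naive B component of gaining, losing and all bins by the number of naive B peaks in the bin. Most gaining bins crowd above 1 in both maps, and gaining bins lie farthest above all bins at 1 to 4 naive B peaks.

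Between the maps, the component of gaining bins was slightly higher in plasma cells, by a median of 0.0864 (quartiles -0.0106 and 0.201), and higher in 420 of 578 bins (72.7%, against 59.8% of all bins). Peak-rich bins with little change in peaks, as a whole set, moved by as much (median 0.0872, higher in 71.9%). The direction differed by naive B peaks: the 83 gaining bins with 1 to 4 had a median change of -0.030 (47.0% higher, all such bins 0.0196 and 54.6%), and the 196 with 5 to 9 one of 0.0713 (69.4%, all such bins 0.0108 and 52.3%). With 10 to 14 peaks, gaining bins had 0.0953 (80.6% higher) and peak-rich bins 0.0686 (64.4%). With 15 to 19 the medians were 0.123 and 0.102, and with 20 or more 0.114 and 0.111. In the comparison at exactly the same peak number, gaining bins had the higher median change at 18 of 23 numbers. The other bins there include losing ones. With components of 2 Mb bins the median change of gaining bins was 0.0537. Losing bins had a median change of -0.0893 and were higher in 37.5%. A change of at least 0.25 upwards was seen in 97 gaining bins (16.8%), where 11% of all bins and 14.5% of peak-rich bins passed. The same change downwards was seen in 40 gaining bins (6.92%), against 14.2% of all bins, 8.23% of peak-rich bins and 32.9% of losing bins. Gaining and peak-rich bins thus had like shares in both directions, and losing bins had the largest share of downward changes.

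By the size of the gain, the change of the component was largest at the upper end. Its median was 0.0806 for a gain of 4 to 6 peaks (383 bins), 0.0825 for 7 to 9 (139 bins) and 0.140 for 10 to 16, where 89.3% of 56 bins were higher in plasma. It was -0.191 for bins that lost 7 to 18 peaks. Across 3787 bins with a peak in either list, Pearson's r between gain and component change was 0.24 (Spearman's rho 0.20), and it was 0.19 (rho 0.15) within the 578 gaining bins. Neighbouring bins of a chromosome share 1 principal component, so these points are not independent.

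Changes of compartment were rare. Counting a switch where the component passed 0 and lay at least 0.25 from 0 in both maps, 2 gaining bins switched from B to A (0.199% of all bins did, 9 in number) and 0 from A to B (28 of all bins, 0.618%). A change of sign of any size was seen in 10 gaining bins in each direction (1.48% of all bins went from B to A and 4.35% from A to B). Most gaining bins started in A, so counts by starting side are needed. From B to A went 10 of 54 gaining bins and 67 of 2223 of all bins. From A to B went 10 of 524 gaining bins and 197 of 2309 of all bins. Of those starting in B, 27 of the 54 and 1861 of the 2223 were under -0.5, so the starting depths were unlike. In both maps 44 gaining bins lay in B, as did 47.6% of all bins. The 27 gaining bins that were clearly in B in the naive B map (component under -0.5) had a higher plasma component by a median of 0.189, higher in 88.9%, where all 1861 such bins moved by 0.0551 (70.3% higher). All 27 were still in B in the plasma map. Of the other 27 gaining bins below 0 in the naive B map, 15 (55.6%) were higher in plasma, where 36.2% of all such bins were. Together, 39 of 54 gaining bins that started in B were higher (72.2%), against 64.7% of all bins that did.

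Single bins illustrate the range. The largest move to A was at chr1:62000001-62500000, where 2 naive B and 7 plasma peaks went with components of -0.49 and 0.93. At chr3:100000001-100500000 (7 and 17 peaks) the component was 0.85 and 1.74, and at chr1:95000001-95500000 (8 and 13 peaks) 0.89 and 1.62. Next came chr3:27500001-28000000 (1 and 9 peaks), at 0.09 and 0.77. Gaining bins could also move the other way. The component was lower in plasma by the most at chr1:141000001-141500000, where 5 and 14 peaks went with 1.07 and 0.32, followed by chr2:168500001-169000000 (2 and 6 peaks), with 0.56 and -0.16. It was also lower at chr3:153000001-153500000 (0.95 to 0.30), chr10:115500001-116000000 (0.57 to -0.07) and chr9:116000001-116500000 (1.21 to 0.63). The last 3 bins had 5, 5 and 6 more plasma peaks, so bins with more peaks could have less A-like contacts.

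Of the 10 bins with the largest gain, 9 had a higher plasma component and 9 lay in A in both maps. Chr3:88000001-88500000 went from 16 to 32 peaks and its component from 0.88 to 1.48. Chr10:60500001-61000000 went from 4 to 20 peaks and from 0.98 to 1.5. In both bins, more peaks went with a component higher by over 0.5. Chr4:59000001-59500000 had 13 and 27 peaks (components 1.10 and 1.4). Chr1:60500001-61000000 had 10 and 24 (1.09 and 1.4). Chr9:79500001-80000000 had 9 and 23 (0.31 and 0.73). In these 3 bins the component was higher by 0.30, 0.31 and 0.42. Chr10:80000001-80500000 had 23 and 36 peaks (0.82 and 1.22). Chr8:123000001-123500000 had 12 and 25 (1.26 and 1.31). Chr6:134000001-134500000 had 10 and 23 (1.16 and 1.02), the only one of the 10 with a lower plasma component. Chr15:83000001-83500000 had 9 and 22 peaks (1.34 and 1.43). The 10th, chr4:81500001-82000000, had 1 naive B and 14 plasma peaks and stayed in B (-1.14 and -0.99). Here many plasma peaks lay in a bin whose contacts were those of the B compartment in both maps. Its strongest peak found only in the plasma list, at chr4:81786763-81790057, had a score of 813, above the strongest such peaks of the other 9 bins. Among those were chr3:88348118-88350261 (625), chr1:60918936-60921204 (607) and chr8:123319746-123323023 (548), and the lowest was chr10:80431363-80433032 (302). Trans contact was higher in plasma in 5 of the 10.

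Some loci of B cell and plasma cell identity lay in gaining bins. Gene places are approximate mm9 positions from general knowledge, since the sources used here give no mm9 annotation, so a gene near a bin edge could be assigned wrongly. Of 41 such loci, 16 had a gaining bin and 8 a losing bin. In bins, 16 of the 59 at these loci gained (27.1%), where 11.8% of all bins and 21.6% of bins with at least 5 naive B peaks did. Of the same 59 bins, 10 lost (16.9%), where 8.17% of all bins did. Both shares were thus above those of all bins, and the median naive B peak number at the loci was 14. The loci were chosen with earlier results known, so the shares are a description. RNA levels are given in TPM, the length-scaled share of a library's transcripts, summed over a gene's transcripts, with 1 library each. Prdm1, which encodes Blimp-1, lies in a bin with 14 and 19 peaks, with components of 1.36 and 1.56, and its RNA was at 2.29 TPM in naive B and 249 TPM in plasma cells. The bin of Xbp1, the driver of secretory expansion, had 11 and 20 peaks and nearly equal components (1.09 and 1.11), with RNA at 109 and 939 TPM. The bin of Jchain (Igj in the files), which encodes the chain that joins IgM and IgA polymers, had 4 and 10 peaks. It went from B to A (-0.35 to 0.33), and its RNA was at 510 and 3027 TPM. It is 1 of the 2 gaining bins that switched from B to A by the rule above (the other is chr1:62000001-62500000), and its component change of 0.68 was the 5th largest among gaining bins.

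Il10, an anti-inflammatory cytokine, lies in a bin with 13 and 25 peaks (components 1.25 and 1.46) and had 0.15 and 103 TPM. The bin with Ctla4 and Cd28, receptors best known from T cells, is one of the 10 largest gains. Ctla4 RNA was at 2.87 and 126.7 TPM, while Cd28 was at 1.46 and 2.07 TPM. In the plasma RNA library the T cell markers Cd3e and Trbc2 were at 0 TPM and Lck at 2.49 TPM. In the naive B library they were at 2.65, 18.0 and 46.0 TPM.

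A gain in peaks also lay over genes with less RNA in plasma cells. Bach2, a repressor that holds the B cell state, spans 2 gaining bins (21 and 26 peaks, then 9 and 18), and its RNA was at 76.7 and 3.88 TPM. Cd22, an inhibitory co-receptor of B cells, had 22 and 26 peaks in its bin, and 919 and 44.8 TPM. Irf8, a transcription factor of B and myeloid cells, lies in a bin with 12 and 25 peaks and had 263 and 133 TPM. The bins of Pax5 (16 and 8 peaks) and Ms4a1 (19 and 11 peaks), both genes of the B cell state, were losing bins. TPM is a share of each library, and the median plasma to naive B ratio over genes at 5 TPM or more in both libraries was -0.99 on the log2 scale, so absolute directions depend on that scaling. Relative to that median, and with 1 TPM added, the log2 ratio was -3.01 for Bach2, -3.34 for Cd22 and 0.01 for Irf8. Of the listed markers, 19 of 23 were matched. The naive B list summed to 4814 TPM in naive B and 442 TPM in plasma cells, and the plasma list to 729 and 4440 TPM. Markers of other cells were higher in the naive B library, at 67.2 and 2.49 TPM for 4 T and NK cell genes, 108 and 0.548 TPM for 3 neutrophil and monocyte genes and 11.6 and 0.0142 TPM for 2 erythroid genes. Their part in these RNA values was not tested. Of the plasma markers, Sdc1, which encodes the CD138 used in the sort, was at 11.1 and 5.38 TPM.

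Contacts between chromosomes were then measured as the mean balanced contact of a bin with bins of other autosomes, divided by the mean over all such pairs of the map. The maps held 8560570 naive B and 7179870 plasma trans read pairs, recovered from the balanced values. Gaining bins were somewhat rich in trans contacts in both maps, with a naive B median of 1.10 and a plasma median of 1.08. All bins had 0.987 and 0.984, and peak-rich bins 1.09 and 1.09. The log2 ratio of plasma to naive B had a median of -0.034, and 248 of 578 (42.9%) were higher in plasma. With the stricter bin filter the median was -0.019, and it was -0.34 when the lower trans share of the plasma map was left in. The medians were -0.0049 for all bins, -0.014 for peak-rich bins and -0.062 for losing bins. Among bins with 5 to 19 naive B peaks, the median was -0.037 for gaining bins and -0.037 for all bins. A value at least 1.2-fold higher was seen in 35 gaining bins (6.06%), fewer than the 8.98% of all bins, and one at least 1.2-fold lower in 23 (3.98%, against 5.74% of all bins). No larger share of gaining bins than of all bins thus had more trans contact in plasma. The share of a bin's contact that was in trans was lower in plasma for gaining bins (median 25.8% and 20.5%), as it was for all bins (23.6% and 18.9%).

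Trans contact was higher by the most at chr2:20500001-21000000, from 0.88 to 1.23 times the map mean (3349 and 3979 read pairs). Chr12:49500001-50000000, which had no naive B peak, went from 0.79 to 1.09 and stayed in B. At chr11:121000001-121500000, next to the end of its chromosome, trans contact was 1.15 and 1.52. At chr11:105500001-106000000 it was 0.91 and 1.23, and at chr2:10000001-10500000 0.92 and 1.25. It was lower by the most at chr5:66500001-67000000 (1.39 and 0.96, from 6370 and 3775 read pairs) and chr13:55500001-56000000 (1.63 and 1.17). Lower plasma values at chr14:101500001-102000000 (1.06 and 0.79), chr15:79000001-79500000 (1.63 and 1.29) and chr16:93500001-94000000 (1.43 and 1.15) followed.

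Gaining bins met each other across chromosomes more than bins at large. Over 157246 pairs of gaining bins on different chromosomes, mean contact was 1.79 times the map mean in the naive B map (321729 read pairs) and 1.76 in the plasma map (256770 read pairs), a log2 ratio of -0.019 (95% counting interval -0.027 to -0.012). Their contact was thus nearly the same in both maps, and the sign of the difference depended on the processing. It was 0.020 with a stricter filter on thinly covered bins, 0.0051 for bins with a gain of at least 6 and -0.061 from recovered read pairs. Among bins with 5 to 19 naive B peaks it was -0.019 for gaining bins, where all such bins had -0.090. Pairs of peak-rich bins stood at 1.95 and 1.83 (log2 -0.088), and pairs of losing bins at 1.46 and 1.19 (log2 -0.30). Gaining with losing bins went from 1.27 to 1.17. Contact among gaining bins was higher in plasma in 79 of 171 chromosome pairs, that among peak-rich bins in 49 and that among losing bins in 15. Counting intervals cover counting error only, since PCR copies and the spread between cultures are not in them.

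**Figure D3:**
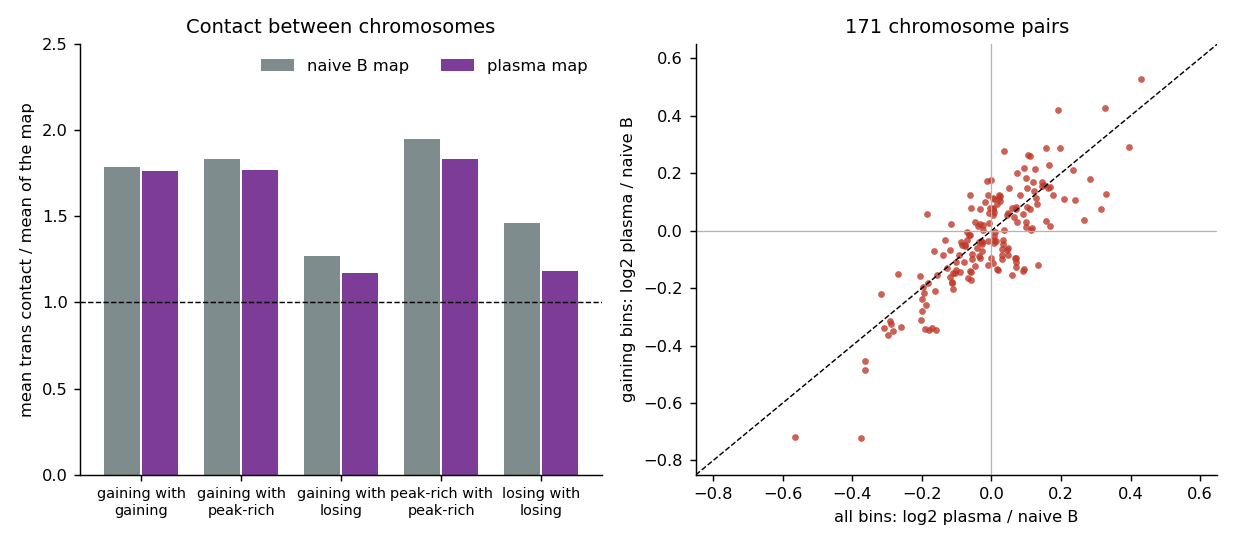
Left, mean trans contact within and between sets of bins, divided by the mean of the map, in the naive B and the plasma map, with the map mean dashed. Right, for each of 171 chromosome pairs, the log2 ratio of plasma to naive B contact among gaining bins (y) and among all bins (x), which include the gaining ones, with the line of equal values dashed. Contact among gaining bins stays near 1.8 times the mean, and their changes run with those of the whole chromosome pair.

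Changes for single chromosome pairs ran with those of the whole chromosomes. Among gaining bins the largest positive log2 ratio was between chromosomes 1 and 11 (1.37 to 1.98 times the mean, log2 0.53), where all bins had 0.43. The most negative ones were between chromosomes 17 and 19 (3.49 to 2.12, log2 -0.72, all bins -0.38) and between 15 and 19 (4.14 to 2.52, log2 -0.72, all bins -0.57). The same held for place on the chromosome. Gaining bins of the first 12 Mb met those of other chromosomes' first 12 Mb at 2.71 and 4.26 times the mean (log2 0.65, all bins 0.59). Those of the last 12 Mb met each other at 2.18 and 3.27 (log2 0.59, all bins 0.72). First with last 12 Mb went from 1.69 to 0.918 (log2 -0.88, all bins -0.88). Away from the ends the 463 gaining bins stood at 1.73 and 1.69. More contact between like chromosome ends and less between unlike ends in plasma cells was thus seen for all bins in those places.

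Trans contact within a class was highest for the largest gains. Bins with a gain of 10 to 16 peaks met each other at 2.56 times the mean in naive B and 2.67 in plasma cells (log2 0.056). For a gain of 7 to 9 the values were 1.88 and 1.88, and for 4 to 6 they were 1.68 and 1.64. For a loss of 7 to 18 peaks they were 1.81 and 1.33 (log2 -0.45). The order among gaining classes was already there in the naive B map.

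**Figure D4:**
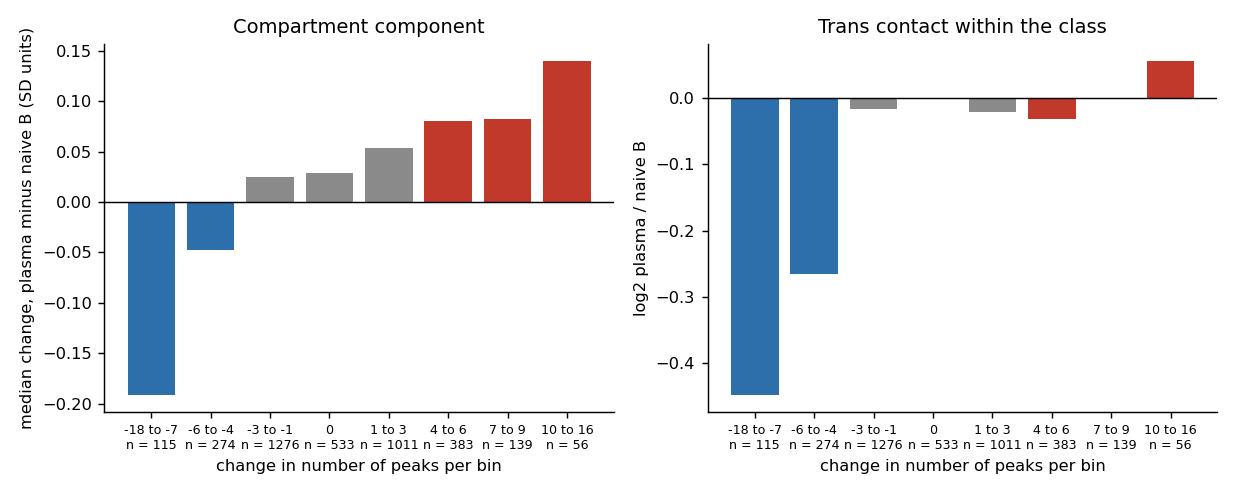
Bins by the change in their number of peaks (losses blue, gains red, n bins under each class). Left, median change of the compartment component from naive B to plasma map in SD units, and right, log2 ratio of plasma to naive B trans contact within the class. Both are lowest at -0.191 and -0.45 for the largest losses and highest at 0.140 and 0.056 for the largest gains.

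Single pairs of bins carried few reads. Of the 157246 pairs, 293 had at least 20 read pairs in 1 map, and 288 of them passed in the naive B map and 5 in the plasma map. That 9 of the 293 were higher in plasma follows from this choice and from the depths, and no share is read from it. The pair with the largest plasma to naive B ratio joined chr9:21500001-22000000 and chr11:4000001-4500000, with 9 naive B and 20 plasma read pairs (6.91 and 20.3 times the mean). Its counting intervals, 4.12 to 17.1 and 12.2 to 30.9 read pairs, overlap. The next largest ratio joined chr9:21000001-21500000 and chr11:5000001-5500000, the bin of Xbp1, with 11 and 20 read pairs. Its intervals, 5.49 to 19.7 and 12.2 to 30.9, overlap too. The smallest ratio joined chr9:44500001-45000000 and chr15:81000001-81500000, with 24 and 2 read pairs (intervals 15.4 to 35.7 and 0.242 to 7.22). Chr15:79000001-79500000, one of the bins with less trans contact in plasma, took part in a pair with chr19:46500001-47000000 that had 29 and 3 read pairs. The run on chromosome 4 took part in pairs of both kinds. Chr4:134500001-135000000, the bin of Runx3, met chr11:97000001-97500000 at 16.1 and 18.7 times the mean. But chr4:133500001-134000000 with chr15:99000001-99500000 had 22 naive B and 3 plasma read pairs. Likewise, chr4:133000001-133500000 with chr15:102000001-102500000 had 21 and 3.

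The authors' own lists of interactions between 1 Mb bins give the same places another readout. Of 2482 1 Mb bins, 504 (20.3%) held a gaining bin, and pairs of these made up 4.11% of all pairs between chromosomes. Of the listed interactions, 10875 of 51456 naive B ones between chromosomes (21.1%) and 9161 of 49374 plasma ones (18.6%) had a gaining bin at both ends. Between chromosomes, these appeared in both lists more often than listed interactions at large. In all, 4919 were shared, which is 45.2% of the naive B and 53.7% of the plasma interactions among gaining bins. Of all listed interactions between chromosomes, 31.1% and 32.4% were shared. Within chromosomes the order was the other way. There, 41.1% of naive B and 37.0% of plasma interactions among gaining bins were shared, against 53.5% and 51.2% of all listed ones. These lists come from the same libraries as the maps.

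By partner, gaining bins met A bins less and B bins more in plasma than in naive B cells. In trans, contact with bins in A in both maps was 1.82 and 1.74 times the mean (log2 -0.066, all bins -0.025) and that with bins in B in both maps 0.477 and 0.541 (log2 0.18, all bins 0.041). The trans log2 ratio with A was more negative for peak-rich bins (-0.093) and losing bins (-0.15). That with B was larger for peak-rich bins (0.28) and losing bins (0.21). In cis, relative to the mean at the same distance on the same chromosome, contact of gaining bins with A bins was 1.38 and 1.27 (log2 -0.11), a larger difference than for peak-rich (-0.069) or losing bins (-0.021). Contact of gaining bins with B bins was 0.450 and 0.503 (log2 0.16), against a log2 ratio of 0.35 for both peak-rich and losing bins. Set beside these 2 sets, gaining bins thus differed less between the maps in contact with B bins and in trans contact with A bins. In cis contact with A bins they differed more.

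Contacts within chromosomes shifted to shorter distances in plasma cells in nearly all bins. In gaining bins the shift was slightly larger by the shares under 2 Mb and at 20 Mb or more. The share of a gaining bin's cis contact (without contact inside the bin) at under 2 Mb had a median of 27.3% in naive B and 37.7% in plasma cells. The median log2 ratio was 0.45, beside 0.39 for all bins, 0.37 for peak-rich and 0.18 for losing bins. Between 2 and 20 Mb it was 31.8% and 35.2%. At 20 Mb or more it was 40.4% and 26.3%, a median log2 ratio of -0.55, beside -0.47 for all bins, -0.53 for peak-rich and -0.38 for losing bins. For the share at 40 Mb or more, gaining bins (-1.03) and all bins (-1.01) were close. A higher far share in plasma was seen in 16 of 578 gaining bins (2.77%, all bins 3.00%), 2 of them by at least 1.2-fold (0.441% of all bins were).

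At matched distance, gaining bins of a chromosome met each other less in plasma cells. Over 9124 pairs at 2 Mb or more, contact was 1.34 times the mean at that distance in naive B and 1.23 in plasma cells. The log2 ratio was -0.13 (95% counting interval -0.13 to -0.12, from 390103 and 323271 read pairs). Pairs of peak-rich bins went from 1.32 to 1.29 (-0.037) and pairs of losing bins from 1.09 to 1.08 (-0.0065). The lower plasma contact among gaining bins lay at middle distances. The log2 ratio was -0.19 at 2 to 20 Mb (1.26 to 1.10) and -0.21 at 20 to 60 Mb (1.30 to 1.12), where peak-rich pairs had -0.12 and -0.049. At 60 Mb or more contact among gaining bins was 1.49 in both maps, and at 0.5 to 2 Mb it was 1.14 in both, where losing bins went from 1.42 to 1.15 (log2 -0.31). Pairs of gaining bins were below the naive B value on 15 of 19 chromosomes and below the peak-rich pairs of the same chromosome on 13. The log2 ratio was lowest on chromosome 14 (1.48 to 1.17, log2 -0.34), chromosome 8 (1.65 to 1.35, -0.29) and chromosome 4 (1.26 to 1.08, -0.23), and values were higher on chromosome 13 (1.13 to 1.22, log2 0.11). So although the component of gaining bins was slightly higher in plasma cells, their mutual cis contact beyond 2 Mb was lower.

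**Figure D5:**
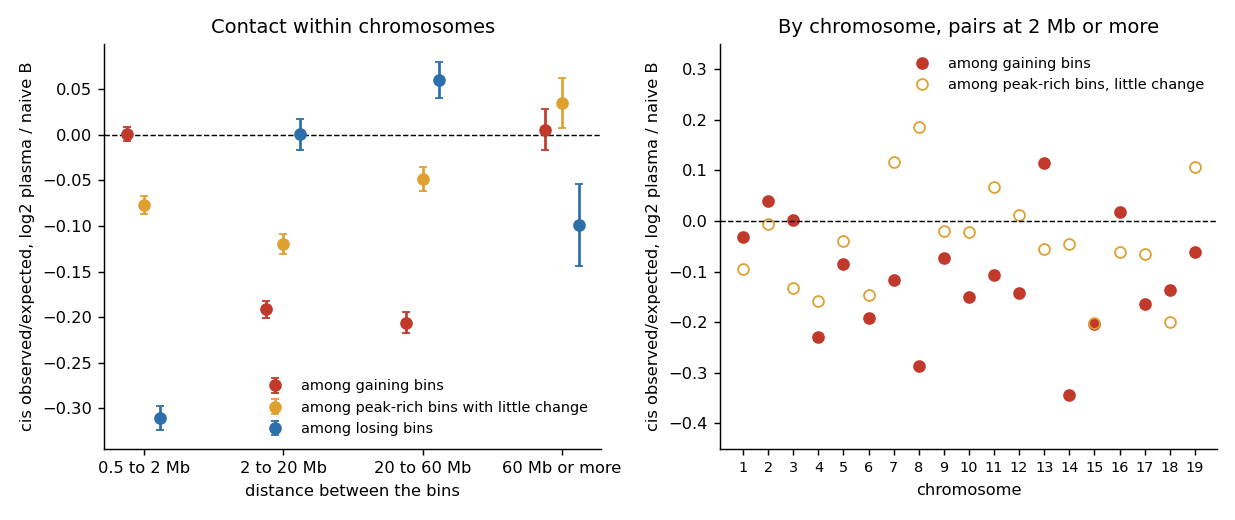
Left, log2 ratio of plasma to naive B cis contact, relative to the mean at the same distance, among gaining, peak-rich and losing bins in 4 distance classes, with 95% counting intervals. Right, the same at 2 Mb or more for each chromosome among gaining bins (filled) and peak-rich bins (open). Gaining bins lie lowest at 2 to 20 and 20 to 60 Mb, and chromosome 14 has the lowest value.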

How the data were processed

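Per the submitters' processing notes, the build was mm9 and the tools named were MACS 1.4, Bowtie, TopHat, Picard, kallisto and HOMER, with no role or order given. The deposited peak lists give a score per peak by the authors' caller, with a minimum of 50.01 in both lists. The authors deposited 500 kb and 2 Mb contact matrices as balanced signal (KR in the file names), and lists of 1 Mb interactions with counts of read pairs per the file headers. The authors' kallisto tables give TPM and estimated counts per transcript, of which TPM was used. ChIP-seq samples were not analysed here.

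Matrices were symmetrised and both scaled to row sums of 5000. Chromosome starts were read from empty bins. Whole read pairs were recovered from the balanced values (99.9% of nonzero trans entries within 0.05 of a whole number). Bins needed at least 0.5 of the median number of nonzero trans partners in both maps. With 1 library per assay and cell type there is no replicate and no test. The bins, the sets and the loci were chosen with earlier results of these data known. Bins named are the 10 largest gains, the largest runs, the 5 largest rises and falls of component and trans contact, and bin pairs with at least 20 read pairs in 1 map. Steps were tested on simulated data. Python 3.11.15, numpy 2.4.6, pandas 2.3.3 and scipy 1.17.1 were used. The alternatives were 43 planned and 10 added after the data were seen.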

Additional observations from a re-analysis of the deposited data

How the results depend on the processing

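No paired analysis was possible because each assay has 1 library per cell type. Values under changed settings are given below beside the main ones, and the cause of a difference was not tested.

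The number of gaining bins was 285 at a minimum gain of 6, while the other rules for counting peaks gave 408 to 825. A peak score of at least 100 in both lists left 449 bins, 343 of them among the 583. Scaling the plasma counts to the length of the naive B list left 408, as did a minimum gain of 5. The lists differ little in length (29868 and 30475 peaks), so scaling puts each of the 175 bins with a gain of exactly 4 just under the threshold. That drop follows from whole peak numbers, and no dependence on list length is read from it. Trans contact among gaining bins (log2 -0.019) changed sign, to 0.020 with the bin filter at 0.75 and to 0.0051 with a minimum gain of 6, so its direction is not settled. It was -0.038 without the bin filter, -0.039 without chromosome ends, -0.061 from recovered read pairs, -0.046 as a mean of chromosome pair means and -0.032 with peaks of score 100 or more (added after the data were seen). The median component change (0.0864) was 0.0979 without the filter, 0.0638 with the filter at 0.75, 0.0962 at a gain of 6, 0.111 without ends, 0.0537 with 2 Mb bins and 0.105 by score. The median trans ratio (log2 -0.034) was, in the same settings, -0.043, -0.019, -0.042 and -0.050, then -0.043 by score, -0.037 with 5 to 19 naive B peaks and -0.34 when the share of trans contact counts. Cis contact among gaining bins (log2 -0.13) was -0.093 with the filter at 0.75, -0.097 without ends, -0.15 from recovered read pairs, -0.19 at 2 to 20 Mb and -0.12 by score. Among bins with 5 to 19 naive B peaks it was -0.12, where all such bins had -0.079. The far cis ratio (log2 -0.55) was -0.54 without the filter, -0.57 at 0.75, -0.55 at a gain of 6, -0.50 without ends, -0.35 from 10 Mb, -1.03 from 40 Mb, -0.52 by score and -0.54 by peaks in 1 list only.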
